A study of Mus musculus with 17 samples.

Results

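Single nuclei with GABA-synthesis transcripts and abundant Meis2, but few or no transcripts of 3 interneuron genes, made up 1420 of 284074 nuclei of the posterior mouse brain (0.500%). They were chosen from raw counts of unique molecular identifiers (UMIs, each standing for 1 captured RNA molecule). A member was labelled a neuron by the authors, was not called a doublet and lay outside deposited cluster 13. It held 3 or more UMIs of Gad1 and Gad2 together and more than 2-fold the UMIs of Slc17a7 and Slc17a6 together. It also held 5 or more UMIs of Meis2, at most 1 of Sst, at most 2 of Adarb2 and at most 2 of Sox6. The members were 0.995% of the 142659 neurons that met the first 3 conditions and 12.5% of the 11386 of these that met the GABA condition. The other GABAergic neurons comprised 6655 interneuron-class nuclei, which exceeded a limit for Sst, Adarb2 or Sox6, and 3311 nuclei with 4 or fewer Meis2 UMIs and none of those limits exceeded. A further 12593 neurons met the mirror-image condition for glutamatergic nuclei.

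Gad1 and Gad2 encode the enzymes that make GABA, the main inhibitory transmitter of the forebrain. Meis2 is a homeobox transcription factor of the TALE class that marks several GABAergic lineages, among them the projection neurons of the striatum, intercalated cells of the amygdala and olfactory bulb interneurons. Among cortical interneurons, Sox6 marks those of the medial ganglionic eminence and Adarb2 those of the caudal one. Malat1, the RNA targeted in this study, is a long noncoding RNA retained in the nucleus, where it is found in speckles that store splicing factors. An antisense oligonucleotide (ASO) of the kind used against it pairs with the RNA, which is then cleaved in the cell.

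The 17 mice, female per the labels, were 2.3 months of age and carried a knock-in of the human transferrin receptor (TfR) on both alleles. All received 4 intravenous doses over 24 days and were sampled 72 hours after the last. The groups were saline (n = 4), unconjugated Malat1 ASO at 2 mg per kg as oligonucleotide (n = 4), anti-TfR:Malat1, an antibody conjugate, at 50 mg per kg (n = 6), and OTV:Malat1, an oligonucleotide transport vehicle that binds TfR, at 50 mg per kg (n = 3). The study set the 2 TfR-binding carriers side by side. Their oligonucleotide content is not stated in the sources used here, so the 2 conjugates are compared at equal mass only. Every animal carried the knock-in, and no wild-type mice were included among the groups. The labels also give the saline animals a dose of 50 mg per kg, with no agent beyond saline named. The comparisons against saline share the same 4 saline animals.

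The members held 8003984 UMIs, 102308 to 1165264 per animal, with a median of 5404.5 per nucleus. Another 615 nuclei met the count conditions but were called doublets by the authors (30.2% of those meeting them) and were left out. A barcode also seen in another library was found for 93 members (6.55%), against 7.16% of all nuclei. The authors' metadata name 4 batches, each with 1 saline and 1 Malat1 ASO animal. OTV:Malat1 animals lay in batches 2, 3 and 4, and the sources used here do not say what the batch is. In the library labelled Malat1 ASO replicate 1, Xist, which silences one X chromosome in female cells, had 5 UMIs over members, interneuron-class and glutamatergic nuclei together, against 4492 to 16282 in the other 16. The Y-linked genes Ddx3y, Kdm5d and Eif2s3y were at 0 in that library and at 0 or 1 UMI in the others, and Uty had 2 UMIs there and 0 to 4 elsewhere. That library thus stands apart from its label in Xist alone, and the main comparisons of Malat1 ASO with saline are given with and without it.

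The number of members per animal varied widely. Saline replicates 1 to 4 gave 162, 125, 65 and 51 nuclei, and Malat1 ASO replicates gave 78, 165, 71 and 82. The 6 anti-TfR:Malat1 animals gave 23 to 96 (median 65.5), and the OTV:Malat1 animals gave 60, 112 and 46. As a share of the neurons considered, members averaged 0.854% ± 0.421 (SD, n = 3) after OTV:Malat1 and 0.798% ± 0.339 (SD, n = 6) after anti-TfR:Malat1. The averages were 1.23% ± 0.56 (SD, n = 4) for Malat1 ASO and 1.31% ± 0.81 (SD, n = 4) for saline. The ranges overlapped in each of the 4 comparisons, and exact two-sided permutation tests of the animals gave p from 0.248 to 0.914. The difference was -0.45 percentage points in OTV:Malat1 against saline (exact p 0.4) and -0.07 in Malat1 ASO against saline (exact p 0.914), or -0.04 without Malat1 ASO replicate 1 (exact p 1.0). Because the rule counts raw UMIs, depth enters it. The median UMIs per member ran from 3943.5 in OTV:Malat1 replicate 3 to 7295.5 in saline replicate 1, and the part of depth in these shares was not tested.

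**Figure D1:**
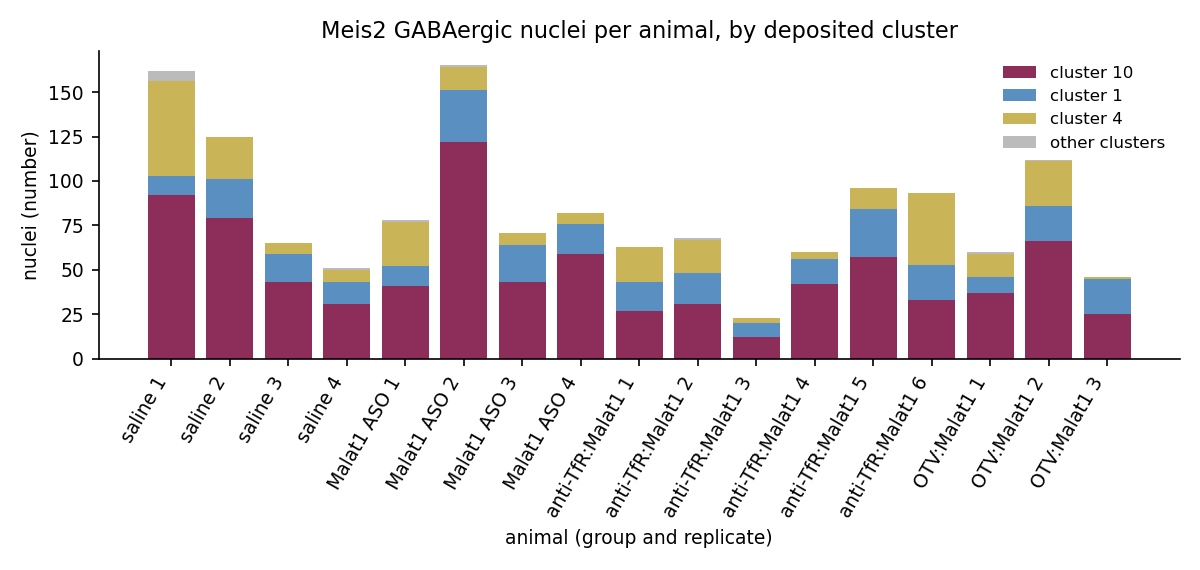
Number of Meis2 GABAergic nuclei (y axis) in each of the 17 animals (x axis, by group and replicate), stacked by deposited cluster. Counts run from 23 in anti-TfR:Malat1 replicate 3 to 165 in Malat1 ASO replicate 2, and cluster 10 is the largest layer in most animals.

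Genes of GABAergic neurons outside the rule were detected in the members. Levels are given as CPM, a gene's UMIs per 1000000 UMIs of the class, averaged over the 17 animals. Of the genes in the rule, Meis2 stood at 1734 CPM in members, 225 in interneuron-class and 157 in glutamatergic nuclei. Gad1 stood at 321, 430 and 4.47 CPM and Gad2 at 496, 525 and 3.42 in the same order. These values follow from how the nuclei were chosen. Outside the rule, Slc32a1, the vesicular GABA transporter, was at 38.7 CPM in members, 44.5 in interneuron-class and 2.85 in glutamatergic nuclei. Abat, which degrades GABA, was at 163, 141 and 33.8 CPM. Over the 9 listed genes of GABAergic identity, 5 were more than 2-fold below interneuron-class nuclei and 0 above, and the sums were 499 and 963 CPM, against 48.2 in glutamatergic nuclei.

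Of the 25 genes highest in members over interneuron-class nuclei, 6 were on the striatal, direct or indirect pathway lists, among them the top 2. These contrasts describe nuclei chosen by related counts and are not tested. Meis2, a gene of the rule, was itself 1 of the 25. The share of all ranked genes on these lists, or beyond 2-fold, is not given here. The lists were also chosen with earlier results of these data known, so the counts are descriptions only. Adora2a, an adenosine receptor, stood at 54.6 CPM in members and 0.77 in interneuron-class nuclei, the highest log2 ratio (4.97). Drd2, the dopamine D2 receptor, was at 154 against 6.46 CPM and Penk, the enkephalin precursor, at 189 against 15.8. All 3 are known from striatal neurons of the indirect pathway. Of the 7 listed genes of that pathway, 4 were more than 2-fold above interneuron-class nuclei and 1 was more than 2-fold below. The list summed to 815 CPM in members and 1231 in interneuron-class nuclei. Rarb, a retinoic acid receptor, was at 867 against 108 CPM, Rgs9, a brake on G protein signalling, at 456 against 57.0, and Ppp1r1b, which encodes the dopamine-regulated phosphatase inhibitor DARPP-32, at 30.3 against 3.41. Each of the 6 genes named here was higher in members than in interneuron-class nuclei of the same animal in 17 of 17 animals. They were ranked on means over these same animals, so this count adds no separate support. Against the most similar nuclei the contrast was smaller for some of these genes than for others. In the interneuron-class nuclei with 5 or more Meis2 UMIs, Rarb stood at 557 CPM and Rgs9 at 292, while Drd2 was at 9.85 and Adora2a at 2.71. The 213 cluster 10 GABAergic nuclei with fewer Meis2 UMIs and no interneuron gene over its limit had Rarb at 985, Rgs9 at 488 and Drd2 at 67.2 CPM. Members of cluster 10 had 1436, 741 and 258 CPM of the same genes. Phosphodiesterase Pde7b (1029.6 against 145 CPM), the protein kinase C gene Prkch (81.6 against 5.38) and the repressor Gli3 (69.7 against 7.03) also ranked among the 25 highest. At the other end stood Egfr, a growth factor receptor (1.23 against 175 CPM), Kit, a receptor kinase (2.48 against 99.8), and Maf, a transcription factor of interneurons (6.75 against 199). These 3 genes were also low in the interneuron-class nuclei with 5 or more Meis2 UMIs, at 0.92, 3.94 and 9.80 CPM.

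Of the 15 listed striatal projection neuron genes, 15 reached 20 CPM in members and 13 were more than 2-fold above interneuron-class nuclei. Among the 14 listed cortical interneuron genes, none was more than 2-fold above and 9 were more than 2-fold below. The share of all genes that differed by 2-fold is not given here, so these counts are descriptions only. The lists were chosen with earlier results of these data known. Erbb4, a neuregulin receptor of interneurons, stood at 864 CPM in members against 6061, and Nxph1, a secreted synaptic ligand, at 386 against 1935. The neuropeptide Y gene Npy stood at 6.79 CPM in members and 50.1 in interneuron-class nuclei. Among other genes of the TALE class, Meis1 was at 90.2 CPM against 22.9 and Pbx3 at 343 against 213. Genes of other cell types were also detected. The summed CPM per animal was 122 to 374 for 10 oligodendrocyte genes, 316 to 543 for 6 genes of their precursors, 30.3 to 113 for 8 microglial genes and 32.3 to 394 for 8 astrocyte genes, the last highest in anti-TfR:Malat1 replicate 1. The 10 excitatory genes outside the rule summed to 527 to 699 CPM in members, against a mean of 1694 in glutamatergic nuclei.

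The members lay in 3 deposited clusters, which differed in their genes. Cluster 10 held 840 of them (59.2%), cluster 1 held 290 (20.4%) and cluster 4 held 278 (19.6%), with 12 elsewhere. The authors made the clusters from these counts, so levels between clusters are descriptions. Members in cluster 10 were striatal projection neuron-like. In them Phactr1 stood at 10136 CPM, the striatal phosphodiesterase Pde10a at 3198, the transcription factor Foxp1 at 2156 and Rarb at 1436. The same 4 genes stood at 1480, 849, 266 and 36.0 CPM in cluster 1 members and at 1324, 726, 291 and 56.9 in cluster 4 members. The 15 striatal genes summed to 20234 CPM in cluster 10 members, 3110 in cluster 1, 2917 in cluster 4 and 3647 in interneuron-class nuclei, so the 2 smaller groups lay at or below the interneuron-class level.

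Transcripts of both striatal output pathways were found among cluster 10 members, with Drd2 in more nuclei than Drd1. Drd2 stood at 258 CPM there, against 7.34 in the other members, and Adora2a at 92.6 against 2.09. Drd1, the dopamine D1 receptor of the direct pathway, stood at 40.0 CPM, against 6.33 in cluster 1 and 1.78 in cluster 4 members. Tac1, the substance P precursor, stood at 36.6, 22.0 and 10.2 CPM in the same order. The 7 direct pathway genes summed to 149 CPM in cluster 10, 147 in cluster 1 and 185 in cluster 4, where Isl1, which is on that list, was highest. The 7 indirect pathway genes summed to 1111 CPM in cluster 10, 489 in cluster 1, 350 in cluster 4 and 1231 in interneuron-class nuclei. Scored by nucleus on Drd1 and Drd2 UMIs, 453 of 840 (53.9%) had Drd2 only, 184 (21.9%) Drd1 only, 48 (5.71%) both and 155 (18.5%) neither. For comparison, 5.21% of glutamatergic nuclei had a Drd2 UMI without Drd1 and 5.37% the reverse, at a median of 6373 UMIs against 5444.5 in cluster 10 members. These shares were 5.86% and 9.31% in cluster 1 members, and 11.5% and 8.63% in cluster 4 members. For oligodendrocytes the same shares were 2.72% and 2.81%, at a median of 1249 UMIs. Cluster 10 held 8951 neurons in all, of which 1478 met the GABA condition and 7380 met neither transmitter condition.

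The smaller groups kept their cluster numbers, since fewer than 3 genes of any list led them. Cluster 1 members were led by Lef1, a Wnt effector (85.0 CPM against 2.98 in other members), and by Otx2, a homeobox factor of the midbrain (54.8 against 3.28), with its neighbour Otx2os1 (555 against 31.3). Lef1 was higher still in glutamatergic nuclei, at 142 CPM, where Otx2 stood at 0.24. The acetylcholine receptor subunits Chrna3 (29.7 against 1.75) and Chrnb3 (30.4 against 1.98) also led. Of 15 midbrain and hindbrain genes, none reached 20 CPM over all members, and their sum was 0.83 CPM in cluster 10, 140 in cluster 1 and 50.3 in cluster 4. Otx2 was 0 in cluster 10 members. Cluster 4 members were led by Rab37, a vesicle GTPase (38.3 CPM against 1.90), Plekhd1 (54.9 against 4.48) and Ramp3, a receptor-modifying protein (45.3 against 4.17). They also held Isl1, a LIM homeobox factor, at 111 CPM and Esrrg, an orphan nuclear receptor, at 999. The 7 thalamic reticular and prethalamic genes summed to 1227 CPM in cluster 4, 839 in cluster 1, 499 in cluster 10 and 583 in interneuron-class nuclei. The 11 intercalated and central amygdala genes summed to 583, 879, 694 and 464 CPM in the same order.

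**Figure D2:**
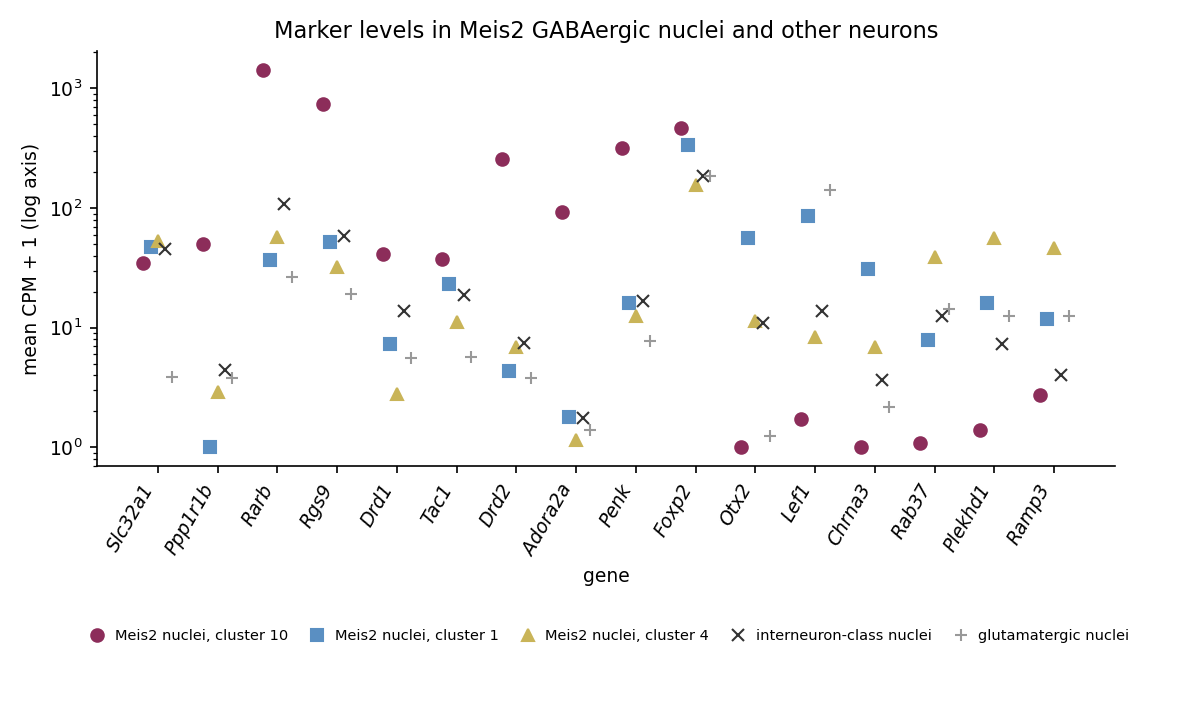
Mean CPM plus 1 (log y axis) of 16 genes (x axis) in Meis2 GABAergic nuclei of clusters 10, 1 and 4 and in interneuron-class and glutamatergic nuclei. Rarb, Drd2, Adora2a and Penk are highest in cluster 10 (1436, 258, 92.6 and 315 CPM), Otx2 in cluster 1 (54.8) and Plekhd1 in cluster 4 (54.9).

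At the Meis2 limit the composition changed gradually. The 191 members with exactly 5 Meis2 UMIs had 39.8% in cluster 10, Rarb at 479 CPM and 5.68% of their UMIs from Malat1. The 183 nuclei with 4 Meis2 UMIs that met every other condition had 37.7% in cluster 10, Rarb at 587 CPM and 5.76% from Malat1. Values on the 2 sides of the limit were therefore close. Among interneuron-class nuclei 704 (10.6%) also had 5 or more Meis2 UMIs.

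Malat1 (chromosome 19, 5795690 to 5802672, minus strand, a lincRNA gene in the GRCm38 annotation) was a large part of the RNA of these nuclei. In saline replicates 1 to 4 it made up 7.95%, 6.20%, 8.04% and 4.47% of members' UMIs. In Malat1 ASO replicates it made up 7.0%, 6.90%, 7.72% and 4.46%, and in OTV:Malat1 replicates 6.11%, 6.52% and 4.40%. Values ran from 4.11% to 7.49% (median 5.72%) among the 6 anti-TfR:Malat1 animals. The groups overlapped in all 4 comparisons, and the batch 4 animal was the lowest in each of saline, Malat1 ASO and OTV:Malat1. Group means were 6.66% ± 1.69 (SD, n = 4), 6.52% ± 1.42 (SD, n = 4), 5.82% ± 1.16 (SD, n = 6) and 5.68% ± 1.13 (SD, n = 3) in the order saline, Malat1 ASO, anti-TfR:Malat1 and OTV:Malat1. The OTV:Malat1 mean was 85.2% of the saline mean, a difference smaller than the spread within either group.

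No comparison of Malat1 in members passed the threshold of 0.05 after Benjamini-Hochberg adjustment over all genes in edgeR's quasi-likelihood test on UMIs summed per animal. In such sums, fewer cells of a type and less RNA per cell cannot be told apart. The log2 change was -0.26 (SE 0.22, p 0.240, adjusted p 1.00) in OTV:Malat1 against saline. It turned to 0.04 with Meis2 of 8 or more and was -0.11 with 50 or more nuclei per animal. Leaving out 1 animal moved it between -0.41 (without saline replicate 4) and -0.11 (without OTV:Malat1 replicate 3), and it was -0.17 and -0.15 without saline replicates 1 and 3. It was -0.19 (SE 0.18, edgeR adjusted p 0.946) in anti-TfR:Malat1 and -0.01 (SE 0.20, edgeR adjusted p 1.00) in Malat1 ASO against saline, and without Malat1 ASO replicate 1 the last was -0.02. OTV:Malat1 against anti-TfR:Malat1 gave -0.07 (SE 0.20, edgeR adjusted p 0.989). Exact two-sided permutation of the single value log2(CPM + 1) gave differences of -0.21 (exact p 0.457), -0.18 (exact p 0.438), -0.02 (exact p 0.857) and -0.03 (exact p 0.905) in the same order, with an adjusted p of 0.905 for each over the 4 tests. Without Malat1 ASO replicate 1 the difference of Malat1 ASO from saline was -0.07 (exact p 0.8). Between the OTV:Malat1 and saline animals of batches 2, 3 and 4 the log2 ratios were -0.02, -0.30 and -0.02. For anti-TfR:Malat1 and saline they were -0.95, -0.11, -0.19 and 0.29 in batches 1 to 4, so the direction was not the same in every batch.

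Interneuron-class nuclei of the same libraries showed lower Malat1 in OTV:Malat1. There it made up 6.06%, 5.38%, 6.69% and 3.36% of UMIs in saline and 3.10%, 3.62% and 2.22% in OTV:Malat1. The OTV:Malat1 mean was 2.98% ± 0.71 (SD, n = 3), 55.4% of the saline mean, and the ranges overlapped only through the saline animal of batch 4. The edgeR log2 change was -0.91 (SE 0.19, p 4.8e-05 before and 0.590 after adjustment). In glutamatergic nuclei the OTV:Malat1 mean was 66.6% of saline (-0.65, SE 0.18, edgeR p 0.0016 before and 1.00 after adjustment over all genes). In the GABAergic nuclei with 4 or fewer Meis2 UMIs the mean was 68.3% of saline. Oligodendrocytes gave 15.0%, with 1.38% to 1.78% of UMIs from Malat1 in OTV:Malat1 against 7.92% to 12.2% in saline.

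**Figure D3:**
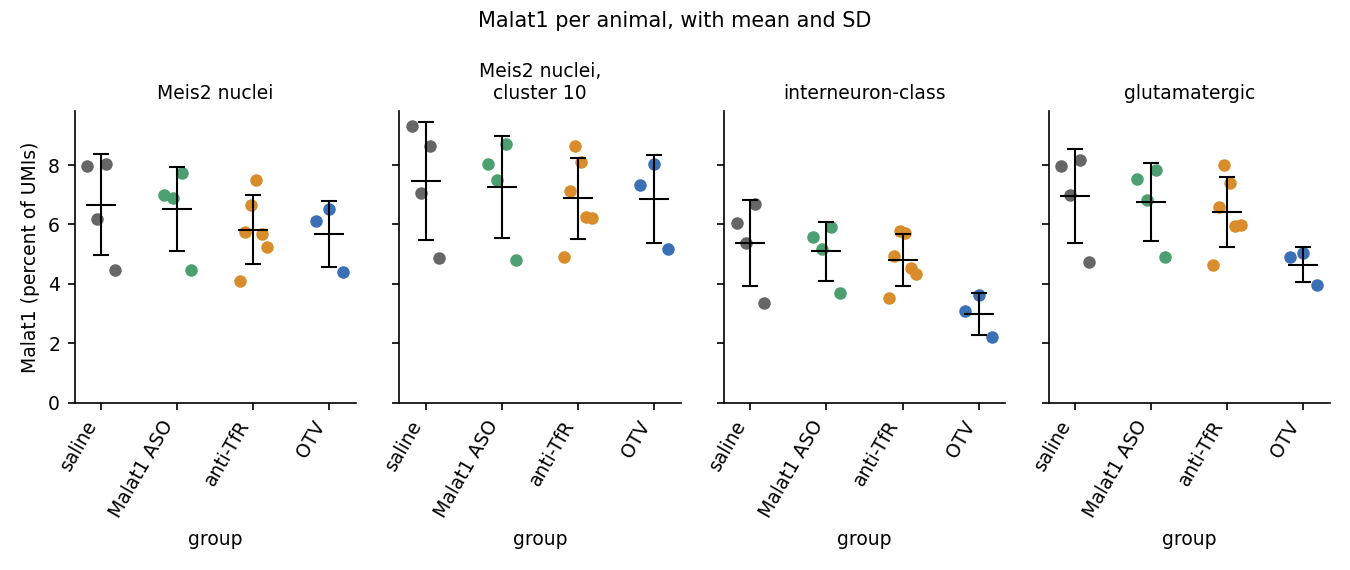
Malat1 as percent of UMIs (y axis) for each animal (points) by group, with group mean and SD, in 4 panels: Meis2 GABAergic nuclei, those in cluster 10, interneuron-class and glutamatergic nuclei. The OTV:Malat1 points overlap saline in the first 2 panels (means 5.68% against 6.66%, and 6.85% against 7.46%) and average 2.98% against 5.37% in interneuron-class nuclei.

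Comparing classes within each animal removes what an animal's libraries share. In saline replicates 1 to 4, log2(CPM + 1) of Malat1 in members exceeded that in interneuron-class nuclei by 0.39, 0.20, 0.26 and 0.41. In Malat1 ASO the differences were 0.33, 0.41, 0.38 and 0.28, whereas anti-TfR:Malat1 spanned 0.21 to 0.39 (median 0.25). In OTV:Malat1 they were 0.98, 0.85 and 0.99. All 3 OTV:Malat1 animals lay above each of the other 14. The group means were 0.32 ± 0.10 (SD, n = 4), 0.35 ± 0.06 (SD, n = 4), 0.27 ± 0.07 (SD, n = 6) and 0.94 ± 0.08 (SD, n = 3) in the order saline, Malat1 ASO, anti-TfR:Malat1 and OTV:Malat1.

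The OTV:Malat1 mean exceeded the saline mean by 0.62 (exact p 0.0571) and the anti-TfR:Malat1 mean by 0.67 (exact p 0.0238), each the lowest p these group sizes can reach. Adjusted over the 8 tests of 2 reference classes and 4 comparisons, these were 0.114 and 0.0952, so neither passed. The difference was in the same direction in 3 of 3 batches against both groups, by 0.78, 0.58 and 0.58 against saline and by 0.76, 0.55 and 0.69 against anti-TfR:Malat1. With labels moved only within batches the values were 0.65 (exact p 0.25) and 0.67 (exact p 0.111), each the lowest p that such moves allow. The anti-TfR:Malat1 mean lay -0.05 from saline (exact p 0.438). The Malat1 ASO mean lay 0.03 from saline (exact p 0.571), or 0.04 without replicate 1 (exact p 0.514).

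Against glutamatergic nuclei the members' difference was smaller and had the same order. In saline it was -0.00, -0.17, -0.02 and -0.08, and in OTV:Malat1 0.31, 0.37 and 0.15, with no overlap. The OTV:Malat1 mean exceeded saline by 0.35 (exact p 0.0571, adjusted 0.114) and anti-TfR:Malat1 by 0.42 (exact p 0.0238, adjusted 0.0952). Within batches 2 to 4 the differences from saline were 0.49, 0.39 and 0.23.

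**Figure D4:**
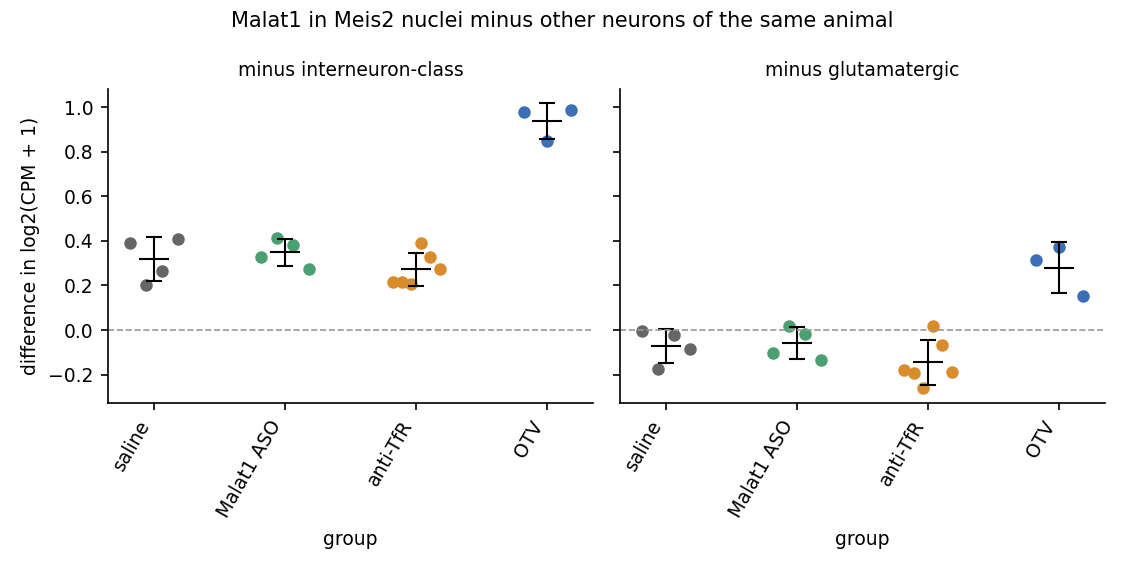
Difference in log2(CPM + 1) of Malat1 between Meis2 GABAergic nuclei and interneuron-class nuclei (left) or glutamatergic nuclei (right) of the same animal (y axis), by group (x axis), with group mean and SD. The 3 OTV:Malat1 animals sit at 0.85 to 0.99 on the left, above the 14 others, and at 0.15 to 0.37 on the right, also above saline.

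The size of the gap depended on which GABAergic nuclei served as the reference, a set of comparisons chosen after seeing the data. Against Sox6 nuclei without Sst, which include the parvalbumin lineage, OTV:Malat1 exceeded saline by 1.19. Malat1 in those nuclei was at 37.8% of saline in OTV:Malat1. Against Sst nuclei the gap was 0.63, against the GABAergic nuclei low in Meis2 0.33, and against Adarb2 nuclei without Sst or Sox6 0.30. In each of these 4, all 3 OTV:Malat1 animals lay above every saline animal (exact p 0.0571, the smallest possible, adjusted 0.183 over 32 tests). With Sst nuclei as the reference Malat1 ASO also exceeded saline, by 0.30, with all 4 of its animals above every saline animal (exact p 0.0286, the smallest possible, adjusted 0.152 over the 32 tests). Without Malat1 ASO replicate 1 that difference was 0.29 (exact p 0.0571, the smallest that 3 animals against 4 allow). Against the interneuron-class nuclei that themselves had 5 or more Meis2 UMIs, the difference was -0.08 (exact p 0.457, adjusted 0.813). In those nuclei Egfr, Kit and Maf stood at 0.92, 3.94 and 9.80 CPM, against 175, 99.8 and 199 in all interneuron-class nuclei. Drd2 and Adora2a, at 9.85 and 2.71 CPM, lay below members. The place of those nuclei in the class thus rests on the limits of the rule. Their own Malat1 was 5.35%, 5.84% and 3.65% of UMIs in OTV:Malat1, 89.8% of saline, while interneuron-class nuclei with 4 or fewer Meis2 UMIs were at 51.5%.

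Deposited clusters showed a related pattern within the members. In cluster 10 members Malat1 was 9.31%, 7.04%, 8.63% and 4.86% of UMIs in saline and 7.34%, 8.04% and 5.19% in OTV:Malat1. The OTV:Malat1 mean was 91.8% of saline (edgeR log2 change -0.13, SE 0.20, adjusted p 0.999, fitted without anti-TfR:Malat1 replicate 3, which had 12 nuclei there). The log2 ratio within batches ran from -0.10 to 0.09. In cluster 1 members OTV:Malat1 was at 72.1% of saline (3.52%, 4.06% and 3.28% against 3.35% to 6.99%), and in cluster 4 members at 78.3%, or 81.9% without OTV:Malat1 replicate 3, which had 1 nucleus there. Exact tests of the single value against saline gave -0.42 in cluster 1 (exact p 0.171) and -0.27 in cluster 4 (exact p 0.267, with 2 OTV:Malat1 animals). Whether the clusters differ from each other in this change was not tested.

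Within a cluster, members and interneuron-class nuclei could be compared directly. In cluster 10 the difference between them was 0.01 larger in OTV:Malat1 than in saline (exact p 0.743), and interneuron-class nuclei of that cluster were at 91.0% of saline. In cluster 1 it was 0.31 larger (exact p 0.114), with 2 of 3 OTV:Malat1 animals above every saline animal, and interneuron-class nuclei were at 59.0%. In cluster 4 it was 0.57 larger (exact p 0.133, the smallest that 2 animals against 4 allow), and interneuron-class nuclei were at 44.9% over all 3 OTV:Malat1 animals, or 54.0% in the 2 animals that entered the difference. The adjusted p over the 32 tests was 0.951, 0.281 and 0.284.

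**Figure D5:**
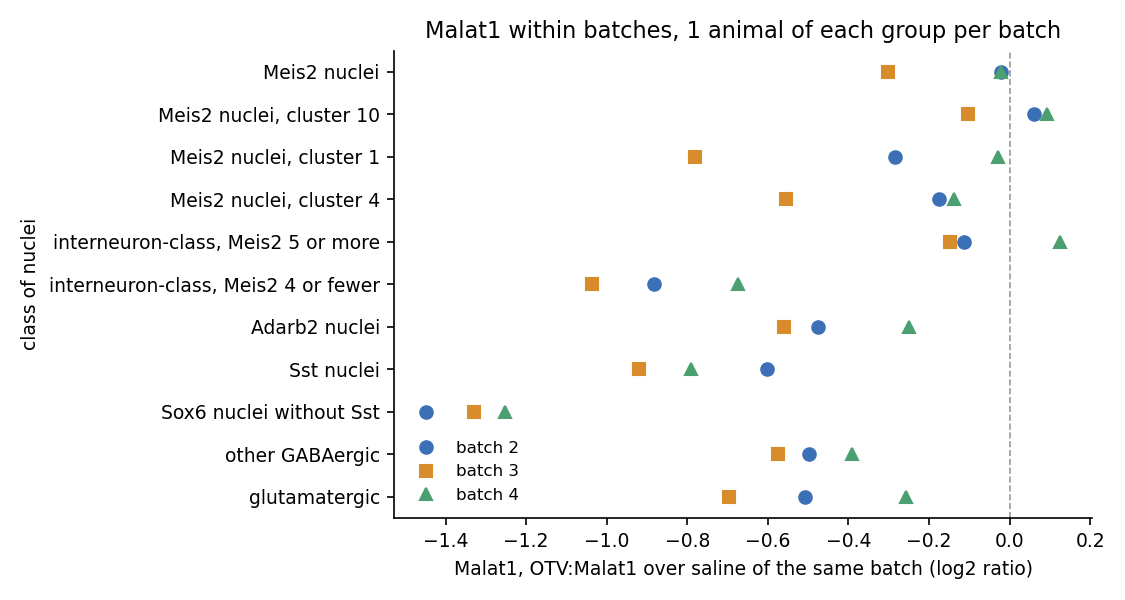
Log2 ratio of Malat1 between the OTV:Malat1 and the saline animal of the same batch (x axis, 1 point for each of batches 2, 3 and 4) in 11 classes of nuclei (y axis). Meis2 GABAergic nuclei lie between -0.30 and -0.02 and those in cluster 10 between -0.10 and 0.09, whereas Sox6 nuclei without Sst lie between -1.45 and -1.25.

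The share of members with little Malat1 was examined at a fixed depth. Nuclei were reduced at random to 500 UMIs each, and a low nucleus had Malat1 counts under 16, set from the 10th percentile in saline members. Saline replicates had 4.32%, 8.0%, 0% and 25.5% of members below that level, where 0 of 65 nuclei in replicate 3 limits the share only loosely. Malat1 ASO replicates had 2.56%, 5.45%, 2.82% and 25.6%, anti-TfR:Malat1 animals had 1.67% to 28.6% (median 10.8%) and OTV:Malat1 animals 11.7%, 16.1% and 26.1%. The groups overlapped, exact tests gave p from 0.286 to 1.0, and the batch 4 animals of saline, Malat1 ASO and OTV:Malat1 were each the highest of their group. Within batches 2, 3 and 4 OTV:Malat1 exceeded saline by 3.67, 16.1 and 0.597 percentage points. With labels moved within batches the difference was 6.78 (exact p 0.25, the smallest possible). Without Malat1 ASO replicate 1 the difference of Malat1 ASO from saline went from -0.34 to 1.84 percentage points (exact p 0.8). In interneuron-class nuclei, measured the same way with a limit of 12 UMIs, the share was 37.8%, 28.6% and 50.9% in OTV:Malat1 and 1.98%, 2.91%, 1.61% and 25.4% in saline.

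Apart from Malat1, 7166 genes were tested in members, and edgeR called 0 of them in each of the 4 comparisons at an adjusted p under 0.05 (0% called). DESeq2 also called 0. Before adjustment 155 genes (2.16%) were higher and 131 (1.83%) lower at p under 0.05 in OTV:Malat1 against saline, 241 (3.36%) and 219 (3.06%) in anti-TfR:Malat1, and 97 (1.35%) and 79 (1.1%) in Malat1 ASO, or 117 and 126 of 7030 genes without Malat1 ASO replicate 1. Against anti-TfR:Malat1, OTV:Malat1 had 172 (2.4%) higher and 152 (2.12%) lower. On simulated data of the same size, the test for OTV:Malat1 against saline called 34.0% of genes changed by a log2 of 1. It called 87.9% of those changed by 2, so changes of the first size could often be missed. The simulation gave every gene the same fixed spread, not estimated from these animals, so its rates may not hold for genes that vary more. Impg1 had a log2 change of -2.55 (SE 0.78) in that comparison and was not called. It rested on 0, 3 and 1 UMIs in OTV:Malat1 and on 21, 13, 9 and 8 in saline. Whether its spread exceeded the simulated one was not tested.

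The genes with the smallest p are given as values only, since none passed. In OTV:Malat1 against saline the smallest was that of Prr3, a zinc finger gene, at 42.6, 42.9 and 59.2 CPM in OTV:Malat1 and 20.6, 19.7, 13.7 and 11.5 in saline (log2 change 1.31, SE 0.29, edgeR adjusted p 0.919). The groups did not overlap, as for 273 of the 7166 genes in that direction (3.81%). Diras2, Dstn, Mrpl21 and Plch1 followed, with log2 changes of 0.84 to 1.21. Among lower genes, Plk2, an activity-induced kinase, stood at 15.2, 46.2 and 37.7 CPM against 74.7, 85.4, 68.7 and 57.4 (-1.11, SE 0.30, edgeR adjusted p 1.00), one of 191 genes without overlap in that direction (2.67%). In anti-TfR:Malat1 against saline March3 was highest in log2 change among those named (1.34, from 19.1 to 46.8 CPM) and Oprd1, the delta opioid receptor, lowest (-1.21, from 42.3 to 14.5 CPM), with an edgeR adjusted p of 0.733 for both. Genes without overlap were 0.377% (higher) and 0.461% (lower) of those tested there. In Malat1 ASO against saline, Ankle2 had the smallest p among higher genes (0.96, edgeR adjusted p 1.00) and Rell2 among lower ones (-1.23, edgeR adjusted p 1.00), where 0.865% and 1.14% of genes did not overlap. Without Malat1 ASO replicate 1 they stood at 0.92 and -1.12 (edgeR adjusted p 1.00 for both), and 1.89% and 3.50% of the 7030 genes then tested did not overlap. Between the conjugates the corresponding genes were Prr3 (1.16, edgeR adjusted p 0.940) and Sobp (-0.65, edgeR adjusted p 0.940), with 1.28% and 0.642% of genes not overlapping.

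No listed striatal gene passed the test: all 15 were tested and 0 were called in any comparison. Their median log2 change was -0.26 in OTV:Malat1 against saline and -0.47 in anti-TfR:Malat1 against saline, with 0 of 15 above 0 in each, against a median of 0.01 and 0.00 over all genes tested. At p under 0.05 before adjustment, 1 and 6 of the 15 were lower, against 1.83% and 3.06% of all genes tested. These comparisons share their saline animals. In OTV:Malat1 against anti-TfR:Malat1 the median was 0.18, with 13 of 15 above 0. In Malat1 ASO the median was 0.06 with 10 of 15 above 0, or 0.22 with 14 of 15 above 0 without replicate 1. Rgs9 stood at 551, 507, 508 and 609 CPM in saline, 480, 406 and 457 in OTV:Malat1 and 175 to 558 in anti-TfR:Malat1 (log2 change -0.50, SE 0.21, edgeR adjusted p 0.733 in the last). Adora2a stood at 66.1, 67.0, 72.1 and 57.4 CPM in saline and 27.4, 33.0 and 64.6 in OTV:Malat1 (-0.85, SE 0.31, edgeR adjusted p 1.00). The share of members in cluster 10 had a mean of 61.7% in saline, 58.3% in OTV:Malat1 and 50.9% in anti-TfR:Malat1. The groups overlapped, with 56.8% to 66.2% in saline and 54.3% to 61.7% in OTV:Malat1. The lowest anti-TfR:Malat1 animal, replicate 6, had 35.5%, while replicate 4 lay above every saline animal. Malat1 ASO animals had 52.6% to 73.9%. The part of this share in the striatal gene changes was not tested. Members of cluster 10 alone were a subset taken up after the data were seen. In them the striatal gene medians against saline were -0.18 in OTV:Malat1 and -0.20 in anti-TfR:Malat1, with 4 and 0 of 15 above 0.

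Immediate early genes are induced by neuronal activity within minutes. Of 12 listed, 6 were tested and 0 were called. Their median log2 change was -0.53 in OTV:Malat1, -0.30 in anti-TfR:Malat1 and -0.06 in Malat1 ASO against saline, and 0 of 6 were above 0 in each of the first 2, which share their saline animals. Nr4a3, an orphan nuclear receptor, stood at 66.9, 36.8, 17.2 and 76.6 CPM in saline and 9.12, 4.95 and 5.38 in OTV:Malat1, where it rested on 3, 3 and 1 UMIs (-3.00, SE 0.96, p 0.0040 before and 1.00 after adjustment in edgeR). It was also at 0 in 1 Malat1 ASO and 1 anti-TfR:Malat1 animal. Npas4, an activity-dependent transcription factor, stood at 21.5, 51.3, 37.8 and 30.6 CPM in saline and 15.2, 3.30 and 16.1 in OTV:Malat1 (-1.92, SE 0.66, edgeR adjusted p 1.00). Egr1 gave -0.52 (SE 0.37), Junb -0.55 (SE 0.52), Arc -0.40 (SE 0.50) and Nr4a1 -0.28 (SE 0.34). In cluster 10 members alone the list's median was -0.43 in OTV:Malat1 with 0 of 6 above 0, but 0.14 in anti-TfR:Malat1 with 4 of 6 above 0, against the direction in all members. Without Malat1 ASO replicate 1 the Malat1 ASO median turned to 0.08, with 5 of 6 above 0.

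The remaining lists held no called gene. For 14 nuclear speckle and splicing genes the median log2 change was 0.07 in OTV:Malat1 and -0.09 in anti-TfR:Malat1 against saline. For 12 tested long noncoding RNAs of the nucleus it was -0.03 and 0.00, and Meg3, the most abundant of them, gave 0.08 (SE 0.14) in OTV:Malat1. Neat1, the neighbour of Malat1 on chromosome 19 and the scaffold of paraspeckles, was at 0 to 12.5 CPM and fell under the filter. For 17 GABA and glycine receptor genes the median was -0.01 and 0.00. Iron handling genes, 8 of 15 tested, had medians of 0.06 and -0.10. Tfrc, the mouse transferrin receptor gene, stood at 21.9 CPM over all animals and gave 0.21 (SE 0.36) in OTV:Malat1 and 0.19 (SE 0.30) in anti-TfR:Malat1, with edgeR adjusted p of 1.00 and 0.987. Lists of other cell types were mostly under the filter. The 3 of 10 oligodendrocyte genes tested had medians of 0.55 in OTV:Malat1 and 0.03 in anti-TfR:Malat1, and the 2 of 8 astrocyte genes -0.42 and 0.51. The 1 of 8 vascular genes tested stood at -0.05 and -0.75. The medians were -0.25 and -0.25 for 5 of 7 indirect pathway genes, -0.26 and -0.24 for 5 of 9 cerebellar inhibitory genes and -0.05 and -0.35 for 4 of 16 neuropeptide genes. Among lists with a median above 0 in anti-TfR:Malat1, it was 0.27 for 7 of 14 genes of the cortical interneuron classes, 0.24 for 6 of 11 intercalated and central amygdala genes and 0.17 for 4 of 7 thalamic reticular and prethalamic genes. In OTV:Malat1 these 3 lists had medians of -0.01, 0.01 and 0.19. The part of other cell types' RNA in the results above was not tested. Of 20 interferon response genes 1 was tested, and of 15 p53 targets 4, with a median of -0.15 in OTV:Malat1.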

How the data were processed

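The authors deposited raw UMI counts per gene and nucleus (10x Genomics, DAPI-sorted nuclei, per the labels), with cell type labels, clusters, doublet calls and batches. Cell Ranger 6.0.1, Seurat 4 and the build mm10 are named per the submitters' processing notes. The sources used here name neither the label reference nor the doublet caller. Nuclei were chosen by the rule stated above, and classes by rules on the same genes. No doublet caller was run here. Members and gene lists were chosen with earlier results of these data known.

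UMIs were summed per animal and class (20 or more nuclei per animal in fits, and 5 or more in single values of clusters and small reference classes). Genes passed filterByExpr and libraries were scaled by TMM. All 17 animals were fitted together with edgeR 4.0.16 (R 4.3.3, glmQLFit and glmQLFTest, two-sided, Benjamini-Hochberg over all genes, threshold 0.05). The 8 genes of the rule were left out of the genes tested. Some genes are not reported here. Single values, as log2(CPM + 1), shares and within-animal differences were tested by permuting animals exactly, two-sided, with the smaller tail doubled (scipy 1.17.1). The labels do not say more of replicates than that each is 1 animal's library. Scripts used Python 3.11.15, numpy 2.4.6, pandas 2.3.3 and matplotlib 3.10.9, and the fit was tested on simulated data.

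Genes named were Malat1, Neat1, Tfrc and the rule genes; the 25 highest and 10 lowest by log2 ratio to interneuron-class nuclei and 8 leading each cluster (20 CPM or more); up to 10 each way past the threshold, or the 5 each way with the smallest p and no overlap; and up to 6 per list. Alternatives were DESeq2 1.42.0, RLE factors, library sizes computed without Malat1, no low-count filter, 2-group fits, title numbers or the authors' batch as a block, Meis2 of 3 or 8 or more, doublets kept, a minimum of 1000 UMIs, a minimum of 50 nuclei in an animal, another thinning depth, percentile and denominator, and leaving out each animal. Gene coordinates are from GENCODE M21 (GRCm38, the assembly mm10 is based on).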

Additional observations from a re-analysis of the deposited data

Results flagged for a closer look

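The percent of Meis2 GABAergic nuclei low in Malat1 was 25.6% in Malat1 ASO replicate 4, far above the other 3 animals of its group (2.56% to 5.45%). Its gap exceeded the 95% limit of Dixon's test, which chance passes in about 1 in 20 groups, and 18 groups were tested. Saline replicate 4, in the same batch, had 25.5%.

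Within each animal, the difference of Malat1 between Meis2 GABAergic and interneuron-class nuclei under OTV:Malat1 exceeded that under anti-TfR:Malat1 by 0.67 on the log2 scale (exact p 0.0238, adjusted 0.0952, 3 of 3 OTV:Malat1 animals above all 6 others). The difference from glutamatergic nuclei was larger by 0.42 (exact p 0.0238, adjusted 0.0952, again 3 of 3). Both were flagged because the difference itself gave an exact p under 0.05 before adjustment, and neither passed after it.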

How the results depend on the processing

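Of 526 recomputed values, 467 kept their direction and their side of the threshold, 55 changed sign, 0 lost or gained a call and 4 counts moved. Alternatives using clusters 10, 1 or 4, or another reference class, were chosen after seeing the data. Without a low-count filter, edgeR called 2, 6 and 1 genes for OTV:Malat1, anti-TfR:Malat1 and Malat1 ASO against saline, and 7 between the conjugates, where the reported count was 0; the cause was not tested. Leaving out each animal gave counts of 0 throughout.

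With Meis2 of 8 or more, the edgeR change of Malat1 turned to 0.037 in OTV:Malat1 and 0.026 in Malat1 ASO against saline and to 0.23 between the conjugates. The single value turned to 0.077, 0.00066 and 0.28 in the same order. The last comparison was also 0.12 (edgeR) and 0.19 (single value) with 50 or more nuclei per animal, and 0.049 and 0.065 in cluster 10. With members of 8 or more Meis2 UMIs, its share differed by -0.096 and its low share by -2.64 percentage points, and the low share by -0.304 in cluster 10. For Malat1 ASO against saline the share turned to 1.19 points among GABAergic nuclei and 0.031 in cluster 10. Its low share turned to 2.25 with Meis2 of 3 or more, 2.12 with 8 or more, 0.583 when thinned to 1000 UMIs and 0.017 at the 5th percentile. Over all alternatives except leaving out animals, the edgeR change of Malat1 ran from -0.38 to 0.037 in OTV:Malat1 against saline. Between the conjugates it ran from -0.20 to 0.23.

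The within-animal difference from interneuron-class nuclei turned to -0.078 in OTV:Malat1 against saline, -0.038 between the conjugates and -0.040 in Malat1 ASO when the reference had 5 or more Meis2 UMIs. For anti-TfR:Malat1 against saline it turned to 0.022 in cluster 10, 0.0092 against Sst nuclei and 0.023 within cluster 4. For Malat1 ASO it turned to -0.025 against Sox6 nuclei, -0.0075 against Adarb2 nuclei, -0.082 within cluster 10 and -0.012 within cluster 1. Against glutamatergic nuclei, anti-TfR:Malat1 turned to 0.0036 in cluster 10.

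Leaving out 1 animal at a time, the edgeR change of Malat1 ranged from -0.41 to -0.11 (OTV:Malat1 against saline), -0.34 to -0.08 (anti-TfR:Malat1), -0.17 to 0.12 (Malat1 ASO) and -0.16 to 0.084 (between the conjugates). The single value ranged from -0.39 to -0.04, -0.36 to -0.08, -0.20 to 0.15 and -0.14 to 0.14. The difference from interneuron-class nuclei ranged from 0.58 to 0.67, -0.08 to -0.01, -0.0060 to 0.063 and 0.64 to 0.71, and that from glutamatergic nuclei from 0.30 to 0.41, -0.11 to -0.05, -0.023 to 0.036 and 0.38 to 0.49. The share ranged from -0.69 to -0.11, -0.74 to -0.16, -0.35 to 0.27 and -0.18 to 0.22 percentage points. The low share ranged from 4.42 to 13.8, 0.34 to 8.84, -5.84 to 5.00 and 0.93 to 8.14.

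With the title number as a replicate block, the edgeR changes of Malat1 were -0.29, -0.11, -0.01 and -0.18, with 0 genes called. Deviations from group means in same-numbered samples of different groups had r of -0.10 to 0.17 (median 0.02, 21 pairs). In saline and Malat1 ASO the title number equals the batch number, but in OTV:Malat1 it does not. Samples of the same batch had r of -0.07 to 0.17 (median 0.05, 27 pairs), against a median of -0.02 in 79 pairs of different batches. The numbers themselves are therefore not read as pairing, whereas same-batch samples deviated together slightly. With the batch as a block the edgeR changes of Malat1 were -0.26, -0.17, -0.01 and -0.09. With 3 OTV:Malat1 animals, no exact p against saline can fall under 0.0571, whatever the depth. The members' depth was 23 to 165 nuclei per animal.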
